A study of Mus musculus with 12 samples.

Results

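The transcriptional response of wild-type (WT) bone marrow-derived mast cells (BMMCs) to IgE and antigen was taken from the WT libraries of the series. These are 4 of 12 RNA-seq libraries, chosen by their labels: 2 of unstimulated and 2 of stimulated WT BMMCs. BMMCs are obtained by culturing mouse bone marrow in mast cell growth factors, and here the marrow came from 6- to 12-week-old mice of both sexes on a C57BL/6N background, and the WT mice were littermates of conventional *Elk4* knockout mice. Cells were grown for 4 to 8 weeks with IL-3 and SCF (each at 10 ng/ml), which both states share, and more than 80% then carried CD117 and FcϵRI. The stimulated cells were loaded overnight with 0.5 µg/ml anti-DNP IgE and given 100 ng/ml DNP-HSA, the antigen that crosslinks this IgE, for 1 h. The other libraries were of *Elk4* heterozygous (HZ) and knockout (KO) BMMCs in the same states. The unstimulated cells are labelled as untreated, and whether they had received IgE without antigen is not stated, so the response to IgE and that to antigen cannot be told apart. The labels do not say whether the 2 libraries of a state came from separate cultures or mice, and the p-values below rest on the spread between the 2 libraries of a group, pooled over all 6 groups of the series, which may be technical.

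FcϵRI is the high-affinity receptor for IgE. When antigen crosslinks its bound IgE, the kinases LYN and SYK phosphorylate the adaptor LAT and activate phospholipase C gamma, which raises calcium and drives calcineurin and NFAT, and in parallel the MAP kinases and NF-κB are activated. Mast cells release stored granules within minutes, make lipid mediators, and then transcribe cytokine and other genes. Immediate-early genes are those whose transcription needs no new protein, and many of them encode transcription factors or inhibitors of the same pathways.

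Reads on genes totalled 29697958 and 31180461 in the unstimulated and 32864756 and 32970996 in the stimulated libraries. The mast cell identity of the cultures was checked with 12 mast cell markers, whose summed FPKM (a level per transcript length and library) was 39920 and 39090 in the unstimulated and 35310 and 35180 in the stimulated libraries. Summed markers of macrophages stayed at or below 3.11 FPKM, of neutrophils at or below 0.207, of B cells at or below 0.247, of T or NK cells at or below 0.330, and of eosinophils at or below 1.48, and of 9 macrophage markers in the table *Mrc1* and *Marco* had no count in any of the 4 libraries. Other macrophage markers were read: *Adgre1* had 98 and 144 counts in the unstimulated and 176 and 184 in the stimulated libraries, *Cd14* 23 and 23 and then 48 and 63, and *Csf1r* 13 and 1 and then 23 and 5. The macrophage sum was higher in the stimulated libraries (2.92 and 3.11 FPKM) than in the unstimulated (1.87 and 2.15), and the eosinophil sum likewise (1.48 and 1.35 against 0.577 and 0.328). Basophil markers, several of which mast cells share, summed to 621 and 605 FPKM in the unstimulated and 413 and 414 in the stimulated libraries, with 0 of 5 called, and megakaryocyte markers to 641 and 630 against 501 and 506, with *Pf4* at 0. Nearly all of the megakaryocyte sum came from *Itga2b* (564.4 and 553.5 FPKM unstimulated, 436.9 and 440.9 stimulated) and *Gp1ba* (76.1 and 76.5, then 63.9 and 64.9). Erythroid markers summed to at most 3.01 FPKM, with *Hbb-bs* at 0, and dendritic cell markers to at most 1.95, with *Flt3* and *Clec9a* at 0. Among these, *Epor* had 126 and 101 counts unstimulated and 88 and 97 stimulated, and *Itgax* 251 and 196 and then 128 and 149. Of the marker genes outside the mast cell list, 1 macrophage and 2 eosinophil markers were called higher and 0 lower. Their part in the results below was not tested.

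In the stimulated cells 453 of 12208 genes tested (3.71%) were higher and 373 (3.06%) were lower, at a Benjamini-Hochberg adjusted p below 0.05 in edgeR's quasi-likelihood test and at least a 2-fold change. These calls are meant wherever a gene is said below to have risen or fallen, unless a smaller change is named. The shares of 3.71% and 3.06% are the background for each 2-fold count of a list below. With libraries scaled by their totals in place of TMM, 341 genes were higher (2.79%) and 848 lower (6.95%), because that scaling moved the median log2 fold change of all genes from -0.01 to -0.32. Higher genes were then 28.7% of calls, against 54.8% with TMM. That scaling lowered the log2 fold change of a gene by a median of 0.31, so the rises below that are smaller than this had the opposite sign under it. In bulk RNA, a change in the number of cells that express a gene and a change in its RNA per cell cannot be told apart. The rises were the larger changes: 239 genes rose at least 4-fold and 140 at least 8-fold, whereas 81 fell at least 4-fold. The median log2 fold change was 2.13 among higher genes and -1.45 among lower genes. Of the higher genes, 28 had no count in either unstimulated library, and with these set to their lower bound the median of the higher genes was 2.01. The 2 libraries of a state did not overlap those of the other in 452 of the 453 higher and 369 of the 373 lower genes, against 33.9% and 36.6% of all genes tested. The calls came from these same libraries, so this count follows largely from the call and is no separate support for it. The called genes that rose took 4.04% and 4.05% of all raw counts in the unstimulated and 16.6% and 16.8% in the stimulated libraries. The direction of this shift follows from their selection as higher, and only its size is informative.

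**Figure D1:**
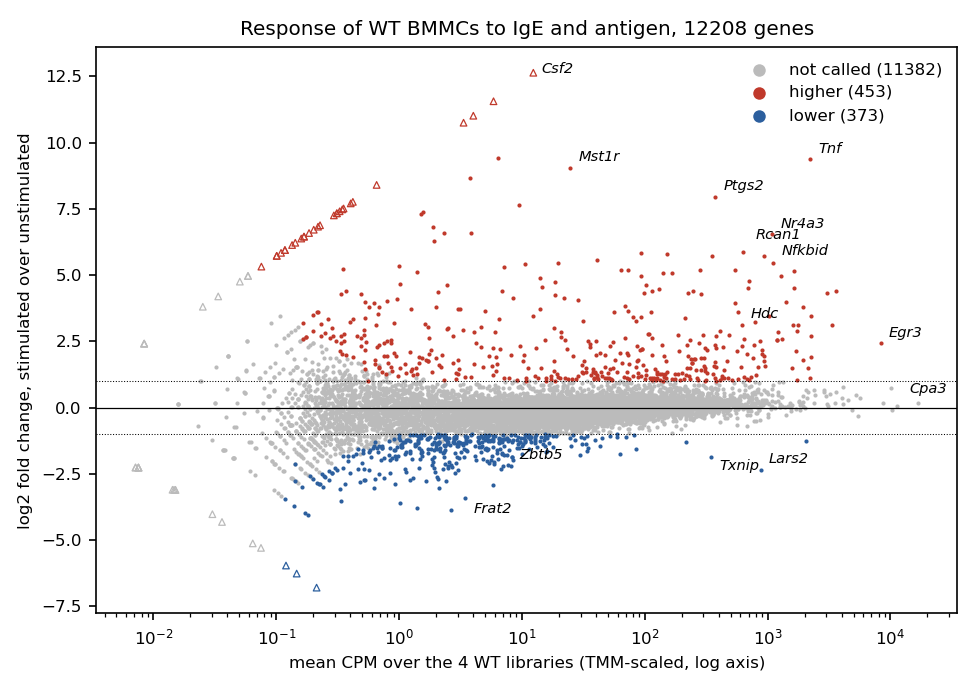
Log2 fold change of each of the 12208 genes tested against its mean CPM over the 4 WT libraries (log axis), where red points are the 453 genes called higher, blue points the 373 called lower and grey points the rest. Triangles are genes with no count in either library of a state, whose height depends on the small count added in the fit, and dotted lines mark a 2-fold change. The red points reach far higher than the blue points reach down, and at high mean CPM hardly any blue point is seen.

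Most immediate-early transcription factors rose. Of 32 tested, 23 rose at least 2-fold and 0 fell as much, with a median log2 fold change of 2.53. *Nr4a3*, an orphan nuclear receptor, stood at 22.9 and 22.7 CPM (counts normalized to library size with TMM scaling) in the unstimulated and 2148 and 2135 CPM in the stimulated libraries, a log2 fold change of 6.55 (SE 0.03, adjusted p = 3.48e-63 by edgeR). Its relative *Nr4a2* went from 12.9 and 13.2 to 692 and 691 CPM (log2 fold change 5.73, SE 0.04), and *Nr4a1* from 325 and 324 to 6786 and 6939.5 CPM (4.40, SE 0.02). The 3 NR4A genes were thus 93.9-fold, 53.0-fold and 21.2-fold higher, with no overlap between the states. *Fos*, a subunit of the AP-1 factor, rose from 15.7 and 14.3 to 538 and 548 CPM (log2 fold change 5.18, SE 0.05), and *Atf3*, a stress-induced factor of the same bZIP class, from 31.5 and 27.3 to 1057 and 1073 CPM (5.18, SE 0.04). Among other AP-1 subunits, the log2 fold change was 3.10 for *Junb*, 2.55 for *Fosl1*, 2.54 for *Fosl2*, 2.13 for *Fosb* and 1.78 for *Jun*, whereas *Jund* changed by 0.31. The EGR zinc-finger factors were already abundant at rest. *Egr3* was read at 2576 and 2584 CPM in unstimulated cells and 13853 and 14291 CPM in stimulated cells (log2 fold change 2.45), and *Egr2* at 265 and 251 and then 3632 and 3622 CPM (3.82). Of the listed factors that did not rise 2-fold, *Myc* had a log2 fold change of 0.94 and *Srf*, the partner of ELK4 and the other ternary complex factors, of 0.28. In the opposite direction, *Klf10* (-0.90, or -1.21 with libraries scaled by their totals), *Irf1* (-0.38) and *Klf2* (-0.32) were lower at an adjusted p below 0.05 without reaching 2-fold, as were 19.9% of all genes (22.9% were lower at that adjusted p whatever the size).

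The 4 immediate-early genes of largest rise with a promoter used here from the RefSeq table were *Nr4a3*, *Nr4a2*, *Fos* and *Atf3*. Their 250 bases before the start are shown as the regulatory sequence of the members that rose most. The sequences are from RefSeq on GRCm38.p6, an older build than the GRCm39 that the submitters' processing notes name. They read 5′ to 3′ on the gene's strand, and capitals mark a match to any of 6 motifs on either strand: the CArG box of serum response factor, the cAMP response element TGACGTCA, the AP-1 site TGANTCA, the κB site, the EGR site GCGNGGGCG, and TATAAA.
*Nr4a3*, chr4:48045055-48045304, + strand: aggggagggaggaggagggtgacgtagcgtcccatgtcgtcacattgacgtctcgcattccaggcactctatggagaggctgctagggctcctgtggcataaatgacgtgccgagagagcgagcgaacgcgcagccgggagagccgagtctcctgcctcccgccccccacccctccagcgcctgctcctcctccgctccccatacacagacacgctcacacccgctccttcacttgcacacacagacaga
*Nr4a2*, chr2:57124004-57124253, - strand: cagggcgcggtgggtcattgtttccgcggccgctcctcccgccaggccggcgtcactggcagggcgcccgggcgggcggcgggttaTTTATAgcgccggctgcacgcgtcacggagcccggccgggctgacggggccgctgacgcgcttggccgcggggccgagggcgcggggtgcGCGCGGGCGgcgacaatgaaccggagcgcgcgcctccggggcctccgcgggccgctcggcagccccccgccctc
*Fos*, chr12:85473640-85473889, + strand: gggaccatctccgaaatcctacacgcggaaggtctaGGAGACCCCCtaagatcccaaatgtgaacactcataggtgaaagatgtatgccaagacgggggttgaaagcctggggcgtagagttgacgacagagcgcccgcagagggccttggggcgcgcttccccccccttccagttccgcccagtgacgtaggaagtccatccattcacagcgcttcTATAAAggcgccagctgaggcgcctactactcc
*Atf3*, chr1:191183334-191183583, - strand: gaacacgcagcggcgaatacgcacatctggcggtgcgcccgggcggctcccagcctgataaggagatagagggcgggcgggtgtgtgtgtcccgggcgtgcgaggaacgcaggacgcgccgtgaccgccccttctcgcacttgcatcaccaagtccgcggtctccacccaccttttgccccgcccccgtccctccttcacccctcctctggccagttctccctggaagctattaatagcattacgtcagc
In these windows the matches were a κB site at positions -214 to -205 from the start and a TATAAA at -33 to -28 in *Fos*, and an EGR site at -74 to -66 and a TATAAA at -164 to -159 in *Nr4a2*. The κB site of *Fos* and the TATAAA of *Nr4a2* match on the opposite strand. The windows of *Nr4a3* and *Atf3* held none of these letter strings, which says nothing about sites outside them or of other letters.

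Across the response, 349 of the 453 higher genes, 303 of the 373 lower genes and 9828 of all genes tested had such a window. The AP-1 site was in 9.74% of windows of higher genes, 3.30% of lower genes and 4.19% of all genes tested. For the κB site the shares were 11.2%, 4.29% and 5.75%, and for TATAAA 12.9%, 7.92% and 6.30%. The EGR site was in 12.6%, 5.94% and 8.84%. The cAMP response element (3.15%, 3.96% and 2.73%) and the CArG box (1.43%, 0.990% and 1.10%) were rarer in each group. A window can hold several of the motifs, and matches may overlap. A match is a letter string and not a bound site, and these shares were not tested.

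**Figure D2:**
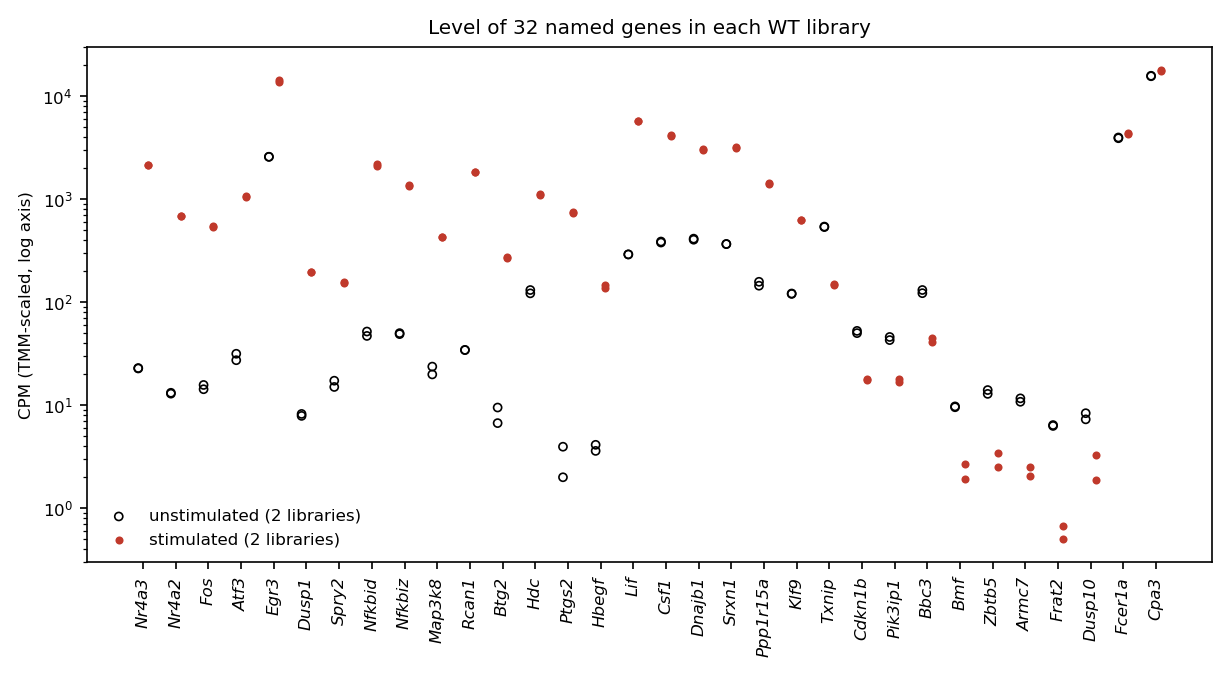
CPM (log axis) of 32 named genes in each of the 4 WT libraries, with open circles for the 2 unstimulated and red points for the 2 stimulated libraries. The 2 circles of a state nearly coincide for most genes, *Nr4a3* to *Klf9* lie higher after stimulation, *Txnip* to *Dusp10* lie lower, and *Fcer1a* and *Cpa3* stay at nearly the same level.

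Genes that restrain MAP kinase and G-protein signalling rose as a group. Of 22 MAP kinase phosphatases, Sprouty-type inhibitors and RGS proteins, 13 rose and 2 fell, with a median log2 fold change of 1.47. *Spry1*, an inhibitor of growth factor signalling to Ras, went from 0.0905 and 0.0572 to 7.41 and 7.69 CPM (log2 fold change 6.61, SE 0.32, from 5 counts in the unstimulated libraries together). *Rgs16*, which speeds the shut-off of G proteins, went from 1.51 and 1.83 to 82.0 and 79.4 CPM (5.59, SE 0.12). *Dusp1*, a nuclear phosphatase of p38 and JNK, went from 8.21 and 7.86 to 196 and 196 CPM (4.61, SE 0.06). The phosphatases *Dusp2* (3.02), *Dusp4* (2.90), *Dusp6* (2.25) and *Dusp5* (1.41) also rose. *Dusp10*, which acts on the same kinases as *Dusp1*, moved the other way, from 7.27 and 8.35 to 1.88 and 3.26 CPM (-1.60, SE 0.20, adjusted p = 6.44e-09 by edgeR). *Dusp7* fell from 13.6 and 14.7 to 7.10 and 6.68 CPM (-1.03), a value just past 2-fold that was -0.96 without unstimulated replicate 2 and -0.99 without stimulated replicate 2.

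In the NF-κB list, the larger values were those of IκB genes, a kinase and a partner of A20 rather than of the subunits. Of 27 genes tested, 7 rose and 0 fell, with a median of 0.28 that turned to -0.03 when libraries were scaled by their totals. *Nfkbid*, a nuclear IκB protein, went from 51.8 and 47.0 to 2114 and 2199.8 CPM (log2 fold change 5.45, SE 0.04), and *Nfkbiz*, another of them, from 48.9 and 50.0 to 1338 and 1359 CPM (4.77, SE 0.03). *Map3k8*, the kinase that activates MEK downstream of IKK, went from 23.7 and 19.9 to 431 and 431 CPM (4.31). *Tnip3*, a partner of A20, had only 2 and 7 counts unstimulated and 46 and 23 stimulated, a log2 fold change of 3.10 (SE 0.63). *Nfkbia*, which encodes the classical inhibitor IκBα, had a log2 fold change of 2.99. Of the subunits, *Rel* rose (1.57), *Nfkb2* (0.98), *Relb* (0.85) and *Nfkb1* (0.28) were higher by less than 2-fold at an adjusted p below 0.05, as were 18.7% of all genes (22.4% were higher whatever the size), and *Rela* had a value of -0.10 with an adjusted p of 0.0976 by edgeR. *Tnfaip3*, the A20 deubiquitinase, was lower, at 62.7 and 52.6 against 37.9 and 34.2 CPM (-0.67).

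Among 29 genes of calcium entry, calcineurin and NFAT, 2 rose (6.90%) and 0 fell, against 3.71% and 3.06% of all genes tested. *Rcan1*, an inhibitor of calcineurin, was at 34.4 and 34.2 CPM in unstimulated and 1829.9 and 1833 CPM in stimulated cells, a log2 fold change of 5.74 (SE 0.03). *Homer1*, a scaffold that binds calcium channels, rose by 1.20 on the log2 scale, or 0.89 with libraries scaled by their totals, which is short of 2-fold. The channel and sensor genes had values close to 0: *Orai1* had a log2 fold change of 0.15, *Stim1* of 0.20 and the calcineurin catalytic subunit *Ppp3ca* of 0.14. *Nfatc1* was higher by 0.51, while *Nfatc2* (-0.04) and *Nfatc3* (-0.06) had adjusted p-values of 0.459 and 0.347 by edgeR.

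The receptor and its proximal machinery changed little. Of 36 genes tested, from the receptor subunits to phosphatases, 0 passed at 2-fold in either direction, against 3.71% and 3.06% of all genes tested, and the median log2 fold change was 0.10. *Fcer1a*, the IgE-binding subunit, was at 3975 and 3909 CPM in the unstimulated and 4368 and 4298 CPM in the stimulated libraries (0.14), a value that turned to -0.17 with libraries scaled by their totals. The adaptor *Lcp2* (SLP-76) was higher, at 1016 and 998 against 633 and 636 CPM (0.67, SE 0.03), and *Plcg1* was lower, at 261 and 263 against 338 and 343 CPM (-0.38, SE 0.03). At an adjusted p below 0.05 alone, 16 of the 36 were higher and 7 lower (22.4% and 22.9% of all genes were), against 4 higher and 25 lower with libraries scaled by their totals, when 6.90% of all genes were higher and 60.6% lower.

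Of 29 granule protease, amine and proteoglycan genes, *Hdc* alone passed at 2-fold, a share near that of all genes tested (3.71%). At an adjusted p below 0.05 alone, 15 were higher and 2 lower against 22.4% and 22.9% of all genes. With libraries scaled by their totals 4 were higher and 20 lower, against 6.90% and 60.6% of all genes. *Hdc*, the enzyme that makes histamine, was at 131 and 122 CPM in the unstimulated and 1116 and 1106 CPM in the stimulated libraries, a log2 fold change of 3.14 (SE 0.04, adjusted p = 8.76e-48 by edgeR). The proteases that fill the granules were among the most abundant mRNAs in both states. *Cpa3*, carboxypeptidase A3, had 15800 and 15636 CPM unstimulated and 17810 and 17605 CPM stimulated (0.17), the chymase *Cma1* 11244 and 10660 and then 11536 and 11518 CPM (0.07) and the tryptase *Tpsb2* 8219.5 and 7936 and then 9086 and 9241 CPM (0.18), and each of these 3 values was negative (-0.14, -0.23 and -0.13) with libraries scaled by their totals. The serglycin core protein gene *Srgn* was higher by 0.51, and the heparan sulphate sulphotransferase *Ndst2* lower (-0.66). Of 35 genes of the exocytosis machinery 0 passed at 2-fold, against 3.71% and 3.06% of all genes tested. At an adjusted p below 0.05 alone 13 were higher and 7 lower, against 22.4% and 22.9% of all genes. With libraries scaled by their totals 0 were higher and 22 lower, against 6.90% and 60.6%. *Rab37* was at 296 and 281 and then 232 and 237 CPM (-0.30), *Sytl3* had a value of 0.31 that became 0.0038 with libraries scaled by their totals, *Rab3a* had a log2 fold change of 0.74 and *Stxbp3* of -0.58, and the fusion proteins *Snap23* (0.10) and *Vamp8* (0.13) lay close to the median of all genes.

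In lipid mediator synthesis, too, 1 gene was called. *Ptgs2*, the inducible cyclooxygenase, rose from 1.99 and 3.94 to 757 and 739.7 CPM (log2 fold change 7.96, SE 0.08). The constitutive cyclooxygenase *Ptgs1* had a value of 0.03, the prostaglandin D synthase *Hpgds* of 0.23, *Alox5* of 0.18 and *Ltc4s*, which makes leukotriene C4, of 0.04. Of the 14 genes tested in this list 1 rose at 2-fold (7.14%) and 0 fell, against 3.71% and 3.06% of all genes tested. *Sphk1*, a kinase that makes sphingosine 1-phosphate, was called outside the list. It had 3 counts in the unstimulated libraries together and 138 and 134 in the stimulated, a ratio of 104 (95% interval 35.1 to 507, counting error only).

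Growth factor and secreted peptide genes also rose. The list holds several that are cytokines by another name (*Csf1*, *Csf2*, *Lif* and *Osm*), of which *Csf2* (GM-CSF) had no count at rest and 694 and 778 counts after stimulation, at least 281-fold higher by a floor of 3 counts a library. Of 23 genes tested, 12 rose and 0 fell, with a median log2 fold change of 1.58, the same with genes at 0 counts set to their bound. *Areg* (amphiregulin), a ligand of the EGF receptor, was not read in either unstimulated library (0 counts) and had 247 and 231 counts in the stimulated ones, which is at least 91.2-fold higher against a floor of 3 counts a library. *Hbegf*, another ligand of that receptor, rose from 3.59 and 4.12 to 136 and 147 CPM (5.19, SE 0.08). *Inhba*, a subunit of activin A, had 3 counts in unstimulated libraries together and 129 and 97 in the stimulated, a ratio of 86.3 (95% interval 29.1 to 421, counting error only), and *Fst*, its secreted antagonist follistatin, chosen after its values were seen, rose from 1.84 and 0.857 to 37.4 and 34.5 CPM (4.74). *Adcyap1*, which encodes the neuropeptide PACAP, was at 0 counts at rest and had 11 and 8 counts in the stimulated libraries, which is at least 3.62-fold higher. *Lif* and *Csf1* (the macrophage growth factor M-CSF) were already read at rest and gained most in absolute terms: *Lif* went from 291 and 290.5 to 5803 and 5766 CPM (4.31) and *Csf1* from 388 and 379 to 4112 and 4219 CPM (3.44). *Vegfa*, which promotes vessel growth, rose from 44.6 and 44.4 to 231 and 230.1 CPM (2.37), and *Osm* from 168 and 162 to 2620.4 and 2660 CPM (4.00). *Vegfb* (-0.14), *Pdgfa* (-0.26) and *Angpt1* (0.02) had adjusted p-values of 0.115, 0.103 and 0.716 by edgeR.

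Cytokines and chemokines are given for comparison. Of 24 tested, 16 rose, 1 fell and the median log2 fold change was 3.71. *Tnf* had the highest CPM of those that rose, from 6.37 and 6.75 to 4323 and 4451 CPM (9.38, SE 0.05). *Il3*, a mast cell growth factor, was likewise at 0 counts at rest and had 189 and 209 counts in the stimulated libraries, which is at least 75.9-fold higher. The gene that fell was *Il16*, a chemoattractant made as a precursor, from 54.4 and 54.9 to 24.2 and 22.9 CPM (-1.21, SE 0.08).

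A minority of the receptor genes rose. Of 42 receptors for cytokines, adenosine, nucleotides, prostanoids, complement and chemokines, 7 rose and 0 fell, against 3.71% and 3.06% of all genes tested. The adenosine receptors were higher, with 125 and 119 CPM unstimulated and 347 and 336 CPM stimulated for *Adora3* (1.49, SE 0.04) and a log2 fold change of 1.27 for *Adora2b* (short of 2-fold at 0.96 with libraries scaled by their totals), and *Adora2a* was higher by 0.88 without reaching 2-fold. The complement C5a receptor *C5ar1* rose from 9.17 and 7.46 to 28.8 and 27.5 CPM (1.76), and *Ccrl2*, a chemerin-binding receptor, from 3.53 and 3.00 to 13.2 and 13.0 CPM (2.00). *Ccr3*, the eotaxin receptor and one of the eosinophil markers, rose from 0.332 and 0.286 to 1.11 and 1.28 CPM (1.94). The subunits of the IL-3 receptor family, which the culture's IL-3 engages, were among the genes that lost most CPM without reaching 2-fold. *Csf2rb* went from 6101 and 6038 to 4888 and 4830.1 CPM (-0.32), and *Csf2rb2* from 10535 and 10409 to 9961 and 9914 CPM (-0.08), but these 2 genes are close copies and their reads may be shared between them. *Kit*, the SCF receptor, had a log2 fold change of -0.08, and the IL-33 receptor *Il1rl1* was higher (0.36).

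Surface molecules that engage other cells rose in part. Of 29 tested, 8 rose and 1 fell, against 3.71% and 3.06% of all genes tested. *Tnfsf14* (LIGHT) went from 28.8 and 26.6 to 542 and 542 CPM (4.29, SE 0.04), *Tnfsf9* (the ligand of 4-1BB) from 1.63 and 2.03 to 35.0 and 35.7 CPM (4.27), and *Tnfsf8* (the ligand of CD30) from 132 and 134 to 629.6 and 627 CPM (2.24). Ligands of the TNF family thus led the list. *Havcr2* (TIM-3) rose from 207 and 209 to 906 and 911 CPM (2.13), and *Cd69*, an early activation marker of lymphocytes, had a value of 1.22, or 0.91 with libraries scaled by their totals. *Icosl*, the ligand of the co-stimulatory receptor ICOS, fell from 9.23 and 9.32 to 3.57 and 4.06 CPM (-1.28, SE 0.16). Integrins and adhesion molecules passed at 2-fold in 0 of 27 cases, and the tetraspanins *Cd53* (0.65) and *Cd9* (0.59) had the lowest adjusted p-values in that list.

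Several factors that shorten the life of mRNAs rose. Of 25 mRNA decay and BTG/TOB genes, 8 rose and 0 fell. *Zfp36* (tristetraprolin), which binds AU-rich elements of cytokine mRNAs, went from 8.87 and 8.92 to 129 and 128 CPM (3.85, SE 0.06), and its relatives *Zfp36l1* and *Zfp36l2* had log2 fold changes of 2.35 and 1.15, the latter short of 2-fold at 0.84 with libraries scaled by their totals. *Zc3h12a* (regnase-1), an RNase of the same targets, had a value of 1.82. *Btg2*, which recruits the deadenylase complex and restrains growth, went from 9.48 and 6.69 to 269 and 274 CPM (5.07), and *Tob2* from 128 and 120.0 to 447 and 455 CPM (1.87). The subunits of the deadenylase and the decapping enzymes had values from -0.29 for *Dcp1a* to 0.23 for *Cnot7*.

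**Figure D3:**
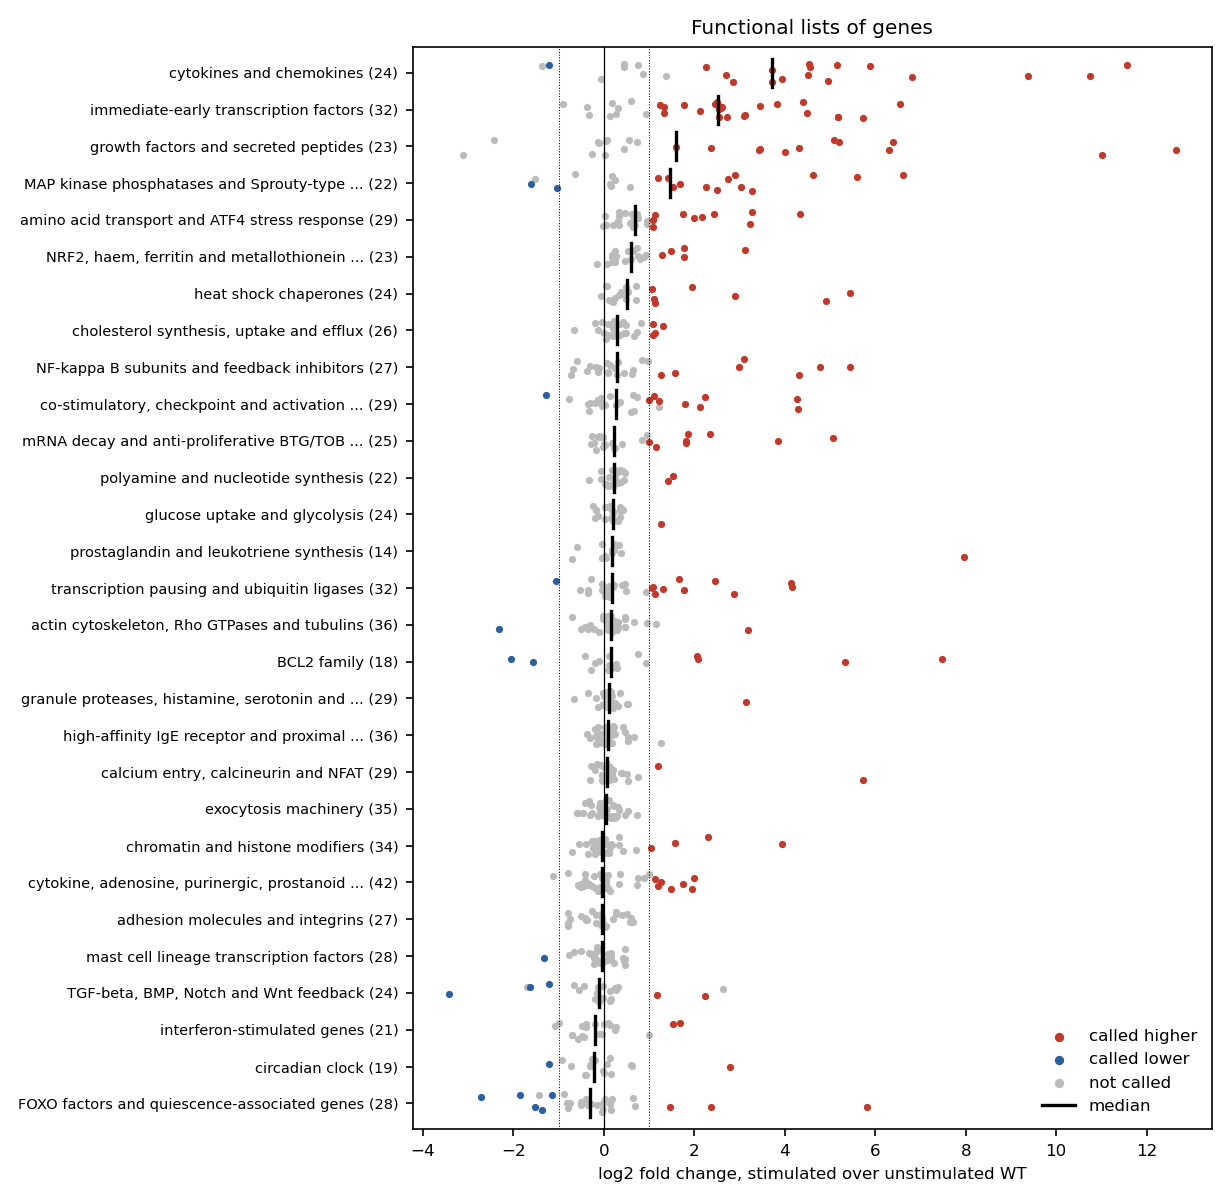
Log2 fold change of the members tested of each of 29 functional lists (number tested in brackets), with red points called higher, blue points called lower, grey points not called, a black bar at the list's median and dotted lines at a 2-fold change. Medians lie past 1 in 4 lists (cytokines, immediate-early factors, growth factors and MAP kinase phosphatases), while the FOXO and quiescence list lies lowest at -0.32.

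Genes of cell survival changed in both directions. Of 18 BCL2 family genes tested, 4 rose and 2 fell, against 3.71% and 3.06% of all genes tested. *Bcl2a1d*, an anti-apoptotic member, had at first 3 counts in unstimulated libraries together and 78 and 37 in the stimulated, and *Bcl2a1b* at first 0 and then 18 and 23, but the A1 genes are near-identical copies and their reads may be shared. *Mcl1*, another survival factor, was higher by 0.93 without reaching 2-fold. The pro-apoptotic BH3-only genes split. *Pmaip1* (NOXA) rose from 22.6 and 25.4 to 98.3 and 103 CPM (2.07) and *Bcl2l11* (BIM) from 17.3 and 16.0 to 71.0 and 68.5 CPM (2.07). *Bbc3* (PUMA) fell from 131 and 122 to 40.8 and 44.6 CPM (-1.57, SE 0.05) and *Bmf* from 9.54 and 9.72 to 1.92 and 2.69 CPM (-2.06, SE 0.17).

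The list of FOXO factors and quiescence-associated genes had the lowest median, -0.32. Of 28 tested, 5 fell and 3 rose, against 3.06% and 3.71% of all genes tested. *Txnip*, an arrestin-like inhibitor of glucose uptake, fell from 536 and 542 to 151 and 146 CPM (-1.86, SE 0.03). *Pik3ip1*, an inhibitor of PI3 kinase, fell from 42.8 and 45.9 to 17.8 and 16.8 CPM (-1.36), and *Fbxo32*, a ubiquitin ligase and FOXO target, from 2.26 and 2.00 to 0.438 and 0.201 CPM (-2.72). The cyclin *Ccng2* (-1.14) was the other gene of the list to fall beside *Cdkn1b*. *Foxo1* (-0.51) and *Foxo3* (-0.51) were lower by less than 2-fold. *Klf9* went the other way, from 121 and 120.2 to 623 and 624 CPM (2.37), as did *Ypel5* (1.45) and *Trib1*, a pseudokinase that targets C/EBPα for degradation, from 3.50 and 3.00 to 182 and 187 CPM (5.83, SE 0.09).

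Stress-response genes were higher as groups. In the list of amino acid transport and the ATF4 response, 26 of 29 genes were higher and 0 lower at an adjusted p below 0.05, against 22.4% and 22.9% of all genes. With libraries scaled by their totals 19 were higher and 2 lower, against 6.90% and 60.6% of all genes. At 2-fold 10 rose, or 6 under that scaling. *Atf4* itself had a log2 fold change of 1.09 (short of 2-fold at 0.78 with libraries scaled by their totals), *Chac1*, a glutathione-degrading enzyme, went from 8.66 and 9.95 to 181 and 196 CPM (4.34), and *Ppp1r15a* (GADD34), which restores translation after stress, from 158 and 144 to 1418 and 1427 CPM (3.24). The growth arrest gene *Gadd45b* (3.26) and the lipoprotein receptor *Vldlr* (2.43) also rose. *Ddit3* (CHOP), another ATF4 target, had a value of 0.05 (adjusted p = 0.431 by edgeR). The cystine transporter *Slc7a11* rose (2.00) and the leucine transporter *Slc7a5* was higher by 0.96.

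Of 24 chaperone genes, 7 rose, and 20 were higher and 0 lower at an adjusted p below 0.05 alone, against 3.71% of all genes at 2-fold and 22.4% and 22.9% at the adjusted p. With libraries scaled by their totals 4 rose, and 14 were higher and 5 lower at the adjusted p, against 6.90% and 60.6% of all genes. The inducible HSP70 genes *Hspa1b* and *Hspa1a*, whose near-identical sequences may share reads, went from 0.815 and 0.943 to 38.9 and 38.3 CPM and from 0.875 and 0.915 to 28.7 and 25.3 CPM. *Dnajb1*, a co-chaperone of HSP70, went from 414 and 404 to 3005 and 3056 CPM (2.89, SE 0.03). *Hspa5* (BiP, 1.11, or 0.80 with libraries scaled by their totals) and *Dnajb9* (1.95), chaperones of the endoplasmic reticulum, also rose, while *Hsf1*, the factor that drives heat shock genes, had a value of 0.04.

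In the list of NRF2 targets, ferritins and metallothioneins, 5 of 23 rose and 0 fell. At an adjusted p below 0.05 alone 19 were higher and 1 lower, against 22.4% and 22.9% of all genes, and with libraries scaled by their totals 14 were higher and 3 lower, against 6.90% and 60.6%. *Srxn1*, which repairs peroxiredoxins, went from 367 and 366 to 3174 and 3190.2 CPM (3.12, SE 0.02). *Hmox1*, haem oxygenase 1, went from 212 and 211 to 717 and 723 CPM (1.77), and the metallothioneins *Mt1* (1.49) and *Mt2* (1.77) rose as well. *Ftl1*, the ferritin light chain, was among the 10 mRNAs highest per length at rest and one of the 8 that gained most CPM, from 7608 and 7337 to 12388 and 12715 CPM (0.75), while the heavy chain *Fth1* had 0.17, or -0.14 with libraries scaled by their totals.

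Metabolic genes changed by smaller amounts. Beside each list count in this paragraph, 3.71% of all genes tested rose and 3.06% fell. *Hk2*, a hexokinase, alone passed 2-fold among 24 genes of glucose uptake and glycolysis, at 102 and 104 and then 246 and 249 CPM (1.26), and it did not reach 2-fold (0.96) with libraries scaled by their totals. Of 26 cholesterol genes 4 rose, among them the synthesis enzymes *Cyp51* (1.13) and *Hmgcs1* (1.08) and the sterol sensor partner *Insig1* (1.09), and these 3 did not reach 2-fold with libraries scaled by their totals (0.82, 0.77 and 0.78). *Odc1*, which makes putrescine, and *Sat1*, which breaks polyamines down, rose together among 22 polyamine and nucleotide genes, from 238 and 241 to 637 and 652 CPM (1.43) and from 196 and 195 to 560.5 and 568 CPM (1.53).

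Chromatin genes and regulators of transcription and protein turnover were called more often in the higher than in the lower direction. Of 34 chromatin genes 4 rose and 0 fell, against 3.71% and 3.06% of all genes tested: *Kdm6b*, a demethylase of histone H3 lysine 27, from 141 and 152 to 719.8 and 724 CPM (2.30, SE 0.04), the acetyl-lysine reader *Brd2* (1.58), *Dot1l* (1.05, or 0.74 with libraries scaled by their totals) and *Phlda1* (3.94), which the list holds although it is not a histone modifier. Of 32 genes of transcription pausing, inducible kinases and ubiquitin ligases, 10 rose and 1 fell, against the same shares. The polo-like kinases *Plk3* and *Plk2* went from 301 and 287 to 2113 and 2179 CPM (2.87) and from 0.875 and 0.915 to 16.3 and 15.7 CPM (4.15), and the kinase *Sgk1* from 2.60 and 2.17 to 41.0 and 42.6 CPM (4.13), and *Sik1* had a log2 fold change of 2.46. The elongation factor *Ell2* rose (1.66), and the pausing inhibitor *Hexim1* had a value of 0.14. *Klhl24*, a ubiquitin ligase adaptor, fell from 44.3 and 48.0 to 23.2 and 20.9 CPM (-1.07), a value of -0.99 without unstimulated replicate 2 and likewise without stimulated replicate 2.

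The factors that define the lineage mostly changed by less than 2-fold. Beside each 2-fold list count in this paragraph, 3.71% of all genes tested rose and 3.06% fell. Of 28 tested, *Gfi1*, a transcriptional repressor of blood cells, was the 1 called gene, falling from 24.8 and 22.4 to 8.82 and 10.1 CPM (-1.32, SE 0.11). *Mitf* (-0.11), the master regulator of the lineage, and *Gata1* (-0.08) had values close to the median of all genes. *Gata2* had 52178 and 52810 counts in the unstimulated and 37692 and 38093 in the stimulated libraries (524 and 505 against 342 and 345 FPKM). At an adjusted p below 0.05 alone, 7 of the 28 were higher and 9 lower, against 22.4% and 22.9% of all genes. With libraries scaled by their totals 2 were higher and 19 lower, against 6.90% and 60.6% of all genes. In the list of TGF-β, BMP, Notch and Wnt regulators, 3 fell and 2 rose of 24. *Frat2*, which blocks GSK3 in Wnt signalling, fell from 6.28 and 6.40 to 0.673 and 0.504 CPM (-3.42, SE 0.26), the Wnt feedback inhibitor *Axin2* from 20.8 and 21.2 to 7.91 and 10.3 CPM (-1.21) and the BMP target *Id3* from 5.67 and 5.09 to 1.99 and 1.48 CPM (-1.63). *Smad7*, an inhibitor of TGF-β receptors, rose (1.17, or 0.86 with libraries scaled by their totals), as did *Tgif1* (2.23). Of 19 clock genes, *Nfil3* rose from 25.9 and 29.2 to 183 and 194 CPM (2.78), and *Nr1d1* fell from 1.78 and 1.43 to 0.505 and 0.873 CPM (-1.21), a call lost at an adjusted p of 0.0957 without unstimulated replicate 1 and 0.170 without stimulated replicate 1 (edgeR). Of 21 interferon-stimulated genes 2 rose, *Isg15* (1.69) and *Gbp3* (1.54), both under 8 CPM. Among 36 cytoskeletal genes *Arc* rose (3.19) and *Rhou* fell (-2.32, adjusted p = 0.0225 by edgeR), each at under 2 CPM, and the *Rhou* call was lost with DESeq2 (adjusted p = 0.0652) and without unstimulated replicate 1 (0.482) or stimulated replicate 2 (0.227). The β-tubulin *Tubb5* was lower, at 516 and 521 against 849.6 and 845 CPM (-0.71, or -1.02 with libraries scaled by their totals), and β-actin higher, with *Actb* at 6076 and 6084 against 4419.7 and 4417 CPM (0.46).

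Of the called genes, 654 were in no list. The 4 examples here are those of largest rise among genes that averaged 100 counts or more in the stimulated libraries, and each had few counts at rest. *Mst1r*, the RON receptor for macrophage-stimulating protein, had 3 counts in each unstimulated library and 49.0 and 48.9 CPM in the stimulated (9.06, SE 0.20). *Ism1*, a secreted protein, had 1 and 0 counts and then 402 and 360, a ratio of 873 (95% interval 156 to 34508, counting error only). *Rasl11b*, a small GTPase of the Ras family, had 0 and 1 counts and then 212 and 239, a ratio of 516 (95% interval 92.2 to 20442). *Rgcc*, a regulator of the cell cycle, had 1 and 5 counts and then 480 and 630 (7.67, SE 0.30).

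The genes that fell were different in kind: their median level at rest was 4.09 CPM, against 10.5 CPM in higher genes and 25.5 CPM in all genes tested, and zinc-finger genes made up a large part of them. Of 335 genes tested whose symbol starts with *Zfp*, 91 fell and 10 rose, against 3.06% and 3.71% of all genes tested, and their median log2 fold change was -0.64. By the deposited transcription factor annotation, 109 of 400 genes of the zf-C2H2 family and 7 of 39 of the ZBTB family fell, and 12 and 0 rose. In the TF_bZIP family 11 of 40 rose and 1 fell, and *Fos*, *Atf3* and *Junb* above belong to that family. Of the *Zfp* genes, 8.99 and 11.5 CPM unstimulated and 1.35 and 1.34 CPM stimulated were read for *Zfp760* (-2.93, SE 0.20), which was chosen after its values were seen. The *Zfp* genes that rose included *Zfp36*, *Zfp36l1* and *Zfp36l2*, which encode RNA-binding proteins of another zinc-finger class.

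**Figure D4:**
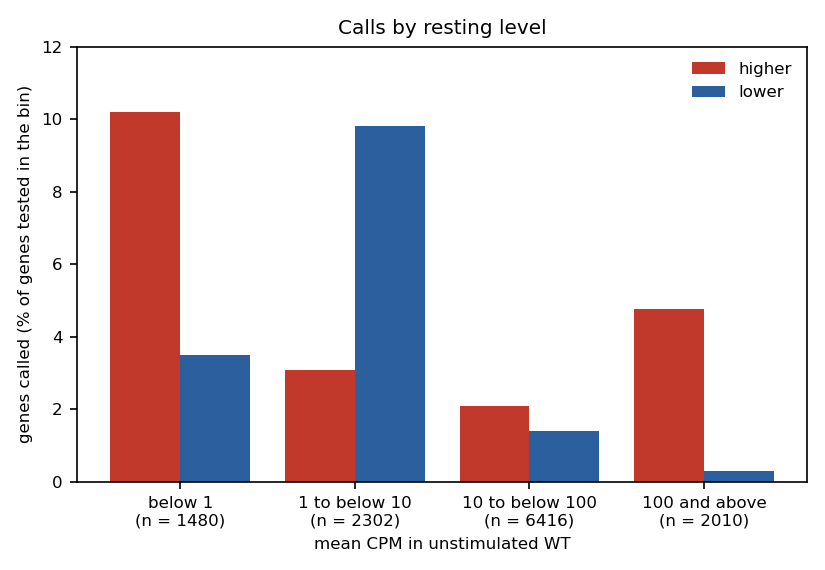
Share of genes tested that were called higher (red) or lower (blue), in percent, in 4 bins of mean CPM in unstimulated WT, with the number of genes in each bin. Calls of lower genes are most frequent from 1 to below 10 CPM (9.82%) and rarest at 100 CPM and above (0.299%), while calls of higher genes are found in each bin (10.2%, 3.08%, 2.10% and 4.78%).

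By resting level, 226 of the 2302 genes from 1 to below 10 CPM fell, and 6 of the 2010 genes at 100 CPM or above. Among these 2010 genes 96 rose. The bins were set by the unstimulated libraries, which the fold change also uses, so a gene's chance error in those libraries enters both axes.

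Called genes of both directions spanned less of the genome than most. The median span from the first to the last base of the gene (RefSeq, GRCm38.p6) was 14.2 kb in higher and 12.5 kb in lower genes, against 22.7 kb in all genes tested. The median exon number in GENCODE M21 was 5, 4 and 9, and 16.9% of higher and 20% of lower genes had at most 2 exons against 6.28% of all genes tested. The transcript length implied by the deposited counts and FPKM was similar, with medians of 3.11, 3.55 and 3.51 kb. Among lower genes, those named *Zfp* had a median span of 15.6 kb and 7.78% with at most 2 exons, and the others 10.8 kb and 24.2%. A span was found for 451 of 453 higher and 372 of 373 lower genes, and an exon number for 449 and 350.

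Apart from genes named *Zfp*, the 12 largest falls (where unstimulated libraries averaged 100 counts or more) were -3.42 for *Frat2*, -2.75 for the AMPK-related kinase *Nuak2*, -2.48 for the deubiquitinase *Otud1*, -2.41 for *Spata2l*, -2.37 for the predicted gene *Gm12258*, -2.34 for *Lars2*, -2.30 for *Armc7*, -2.28 for the microtubule-associated *Map10*, -2.27 for *Pars2*, -2.23 for *LOC115488789*, -2.20 for *Lipt2* and -2.19 for *Zbtb5*. *Zbtb5*, a BTB-type zinc-finger gene not named *Zfp*, fell from 426 and 490 counts to 74 and 101 (SE 0.16), and *Armc7* from 10.8 and 11.6 to 2.05 and 2.48 CPM (SE 0.19). *Pars2* and *Lars2* encode mitochondrial tRNA synthetases and *Lipt2* an enzyme of mitochondrial lipoylation.

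*Lars2* stood apart from the others of this group. It had 1698 and 1224 CPM in the unstimulated and 291 and 286 CPM in the stimulated libraries, and the gene *LOC118568312* moved with it, from 3299 and 2435 to 1210.2 and 1204 CPM (-1.25). The unstimulated libraries held 56278 and 42813 counts of *Lars2* and 109327 and 85184 of *LOC118568312*, so the libraries of this state also differed from each other. In the HZ and KO cultures *Lars2* changed by -0.18 and 0.23 on the log2 scale, and both responses differed from that of WT (adjusted p = 3.35e-21 and 5.73e-23, edgeR interaction). Whether it belongs to the response or to the unstimulated WT libraries was not tested.

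The 24 genes of largest change outside the cytokine list were also read in the HZ and KO libraries, whose counts do not enter the WT fold changes but do enter the estimate of spread, the filter and so the p-values of the WT comparison. All 24 changed in the same direction in HZ, and 23 in KO, where *Lars2* was the exception. Tested as a difference between responses (edgeR interaction, adjusted over all genes tested), 6 of the 24 differed between HZ and WT, against 38.5% of all genes tested, and 3 between KO and WT, against 9.27%. Genes with few resting counts could hardly pass this test. The standard error of the HZ difference was 2.16 for *Areg* and 2.05 for *Ism1*, against 0.066 for *Nr4a3*. *Ptgs2* rose by 7.96 in WT, 10.06 in HZ and 9.62 in KO on the log2 scale, and *Nr4a3* by 6.55, 8.21 and 7.91. Both had fewer counts at rest outside WT: the 2 unstimulated libraries together held 204 counts of *Ptgs2* in WT, 65 in HZ and 94 in KO, and of *Nr4a3* 1553, 333 and 646. *Armc7* is an example without such a difference, with -2.30, -2.30 and -2.52.

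**Figure D5:**
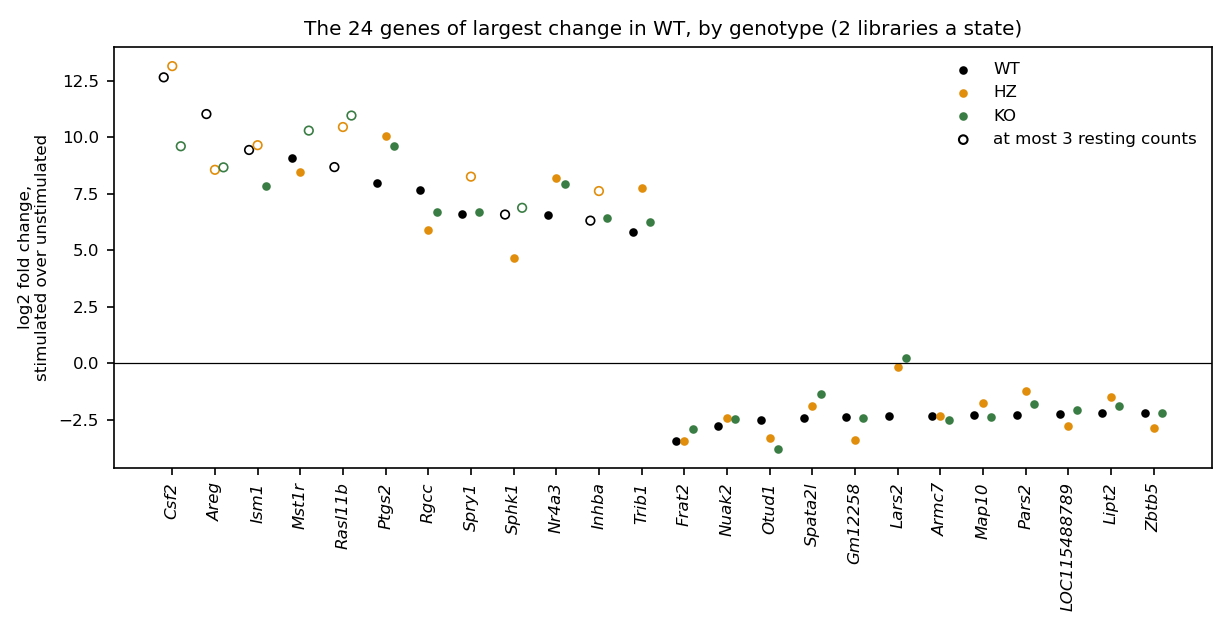
Log2 fold change of the 24 genes of largest change in WT (black), HZ (orange) and KO (green) BMMCs, from 2 libraries a state. Open circles mark genes with at most 3 counts in the unstimulated libraries of that genotype together, whose height is uncertain, and *Lars2* is the gene whose HZ and KO points lie near 0.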

How the data were processed

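RNA of WT BMMCs was read in 4 of the 12 libraries, in groups given by the labels. The authors trimmed reads with fastp, aligned them with HISAT2 and counted them per gene with HTSeq, on GRCm39 by the submitters' processing notes, with no versions named and the strand setting not stated, so reads of overlapping antisense genes cannot be told apart. They deposited raw read counts and, in a second table, FPKM values, which are scaled by transcript length and library total. Counts were fitted in R 4.3.3 with edgeR 4.0.16 (filterByExpr, TMM, a mean for each of 6 groups, quasi-likelihood test, Benjamini-Hochberg adjustment over 12208 of 16234 genes). Calls needed an adjusted p below 0.05 and an absolute log2 fold change of 1 or more. Fold changes used a prior count of 0.125. Where both unstimulated libraries had 0 counts, the fold is a lower bound against 3 counts in each library. Where they held 1 to 3 counts together, the exact 95% interval of the ratio is given, which covers counting error only. The depth of 29697958 to 32970996 counts and the biological coefficient of variation (4.01%) limit the precision. The standard error of the log2 fold change at a mean of 10 CPM or more was mostly 0.048 to 0.091.

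The members, the 29 gene lists and the rule for named genes were chosen with earlier results of these data known, and lists are described by counts and medians alone. Of 887 symbols listed, 860 were in the table and 781 were tested. The rule named, outside the cytokine list, the 12 genes of largest change in each direction averaging 100 counts or more in the higher state and no overlap (without *Zfp* symbols among lower genes). In each list it named up to 4 called genes in each direction or, with none, the 2 of lowest adjusted p, and further members whose role called for a value (a few genes are not reported here). It also named the 10 genes highest in FPKM at rest and the 8 with the largest gain and loss of CPM. Alternatives were DESeq2 1.42.0, DESeq2 size factors, library totals, other filters, thresholds and prior count, the WT libraries alone, a replicate block, each library left out, and limma 3.58.1 on log2(FPKM + 1) or log2(FPKM + 0.1). On data simulated for this comparison edgeR called 199 of 200 changed genes. Those changes were of the same size, equally many in each direction and in genes above a count minimum, and all genes had the same spread. The real libraries differ in each of these, so the share cannot be carried over to them. How many unchanged genes it called there is not given. Whether such a share holds for genes with few counts, or under library totals, was not tested. Promoters and gene spans were from RefSeq on GRCm38.p6 and exons from GENCODE M21, and were matched by gene. The replicates of a state differed by more than counting noise (chi-square per degree of freedom 4.30 and 3.42).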

Additional observations from a re-analysis of the deposited data

Results flagged for a closer look

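The responses of 9 gene and genotype pairs were singled out because a test of the difference between the WT response and that of HZ or KO cultures passed at an adjusted p below 0.05 (edgeR interaction, adjusted over all genes tested, 2 libraries a state), as it did for 38.5% of all genes tested in HZ and 9.27% in KO. Each difference is on the log2 scale. For *Ptgs2* the response exceeded that of WT by 2.10 in HZ (adjusted p = 3.37e-10) and 1.66 in KO (1.19e-07), and for *Nr4a3* by 1.66 (1.31e-25) and 1.35 (4.8e-24). *Trib1* exceeded WT by 1.94 in HZ (3.99e-08). The unstimulated libraries together held 221 counts of *Trib1* in WT, 35 in HZ and 94 in KO. The fall of *Gm12258* was larger in HZ, with a difference of -0.99 (0.0334), and so was that of *Zbtb5*, with -0.66 (0.0206). *Lars2*, which fell in WT, differed by 2.16 in HZ (3.35e-21) and 2.56 in KO (5.73e-23), and its unstimulated libraries together held 99091 counts in WT, 49406 in HZ and 18531 in KO. The part of the resting levels in these differences was not tested. With 2 libraries a group, it could not be told which library of a differing pair stood apart.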

How the results depend on the processing

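The 2-fold counts stayed within 1.5 times of 453 higher and 373 lower genes with DESeq2 (465 and 343), with either filter, the WT libraries alone, an adjusted p below 0.01 and a prior count of 2. Scaling by library totals gave 341 higher genes, each of them shared with the 453, and 848 lower genes, which held all 373, so that higher genes were 28.7% of calls against 54.8%. Without a fold threshold 2733 genes were higher and 2797 lower, which became 842 and 7397 under library totals. A fold threshold of 1.5 gave 698 and 875. With limma 204 were higher and 149 lower on log2(FPKM + 1) (749 and 7055 without the fold threshold), 243 and 508 on log2(FPKM + 0.1) (753 and 7033) and 206 and 149 with no filter (877 and 7040). Without 1 library there were 429 to 449 higher and 332 to 362 lower genes (2288 to 2410 and 2171 to 2294 at the adjusted p alone), and 5 to 6 responses differed from WT in HZ and 3 in KO each time. The replicate block gave 451 and 357. Differences between replicates 1 and 2 correlated by -0.028 between the states over 9858 genes. That value cannot tell unpaired samples from paired ones whose replicates differ by technical spread alone. Under library totals and the 3 limma settings the small rises reversed: *Cpa3* to -0.14, *Cma1* to -0.23, *Tpsb2* to -0.13, *Fcer1a* to -0.17, *Fth1* to -0.14 and *Eef1a1* to -0.0036. There were 2406 alternatives for 136 named genes, including a fold threshold of 1.5 and none, under which no call could be lost. Named genes that a setting's filter removed are not among the 2406, so they count neither as kept nor as lost. With at least 10 counts needed in every WT library, 116 of the 136 were left, and the limma settings with a filter also removed some. Of the 2406, 2305 kept direction and call and 73 lost the call. Apart from the scaling, the cause was not tested.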

Other observations

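Among called genes in no list, chosen here after their values were seen, several encode secreted or surface proteins. *Olr1*, a scavenger receptor, went from 5.37 and 5.29 CPM in unstimulated to 300.3 and 295 CPM in stimulated cells, a log2 fold change of 5.80. *Ccn1*, a matrix-associated signalling protein, went from 0.513 and 0.429 to 19.9 and 21.1 CPM (5.44). The urokinase gene *Plau* (2.33), the protease *Adamts1* (3.43) and the cathepsins *Ctsl* (3.35) and *Ctsc* (2.19) rose as well. The IL-7 receptor *Il7r* went from 1.39 and 1.29 to 7.37 and 6.98 CPM (2.42) and the sphingosine 1-phosphate receptor *S1pr3* from 1.51 and 1.43 to 10.1 and 11.0 CPM (2.84).

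*Socs3*, which encodes an inhibitor of cytokine receptor signalling, rose from 8.18 and 8.95 to 101 and 107 CPM (3.60), and the related genes *Cish* and *Socs2* had log2 fold changes of 1.96 and 1.07, the last short of 2-fold at 0.76 with libraries scaled by their totals. *Mdm2* (2.01) and *Cdkn1a* (1.49), which are known p53 targets, rose. These were picked from their values and stand for no group. *Gch1*, the first enzyme of tetrahydrobiopterin synthesis, went from 256 and 245 to 1296 and 1317 CPM (2.38). The inflammasome sensor *Nlrp3* (1.18, or 0.87 with libraries scaled by their totals) and the kinase *Ripk2* (2.32) rose.

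Among genes that fell were the haematopoietic factor *Nfe2*, from 52.3 and 50.3 to 18.4 and 14.8 CPM (-1.63), the cannabinoid receptor *Cnr2*, from 24.9 and 23.1 to 7.14 and 7.72 CPM (-1.69), and *Vamp1*, a SNARE protein outside the exocytosis list, from 6.97 and 8.75 to 2.46 and 2.89 CPM (-1.56). *Mrtfa*, a cofactor of SRF, had a log2 fold change of -1.05 and the oxygen-sensing ubiquitin ligase component *Vhl* of -1.10. The DNA repair genes *Rad52* (-1.86), *Smug1* (-1.38) and *Pif1* (-1.67) fell too.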
